A study of Mus musculus with 28 samples.

Results

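The hnRNP and SR splicing factor genes are the protein-coding mouse genes whose symbols begin with Hnrnp or Srsf. By this rule 31 genes were taken from the 45513 genes counted in every library, of which 21578 are protein-coding. Of the 31, 20 are hnRNP genes (Hnrnpa0, Hnrnpa1, Hnrnpa2b1, Hnrnpa3, Hnrnpab, Hnrnpc, Hnrnpd, Hnrnpdl, Hnrnpf, Hnrnph1, Hnrnph2, Hnrnph3, Hnrnpk, Hnrnpl, Hnrnpll, Hnrnpm, Hnrnpr, Hnrnpu, Hnrnpul1 and Hnrnpul2) and 11 are SR genes (Srsf1, Srsf2, Srsf3, Srsf4, Srsf5, Srsf6, Srsf7, Srsf9, Srsf10, Srsf11 and Srsf12). The pseudogenes Hnrnpa1l2-ps and Hnrnpa1l2-ps2 carry the family symbol but are not protein-coding and were left out.

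Ribosome-protected mRNA fragments (footprints) and poly(A)-selected total mRNA were sequenced from the same cultures, in 28 libraries. MN1 cells, a clonal hybrid line of embryonic spinal cord motor neuron and neuroblastoma parentage, were transiently transfected with a plasmid for GFP, for human TDP-43 (hTDP-43 WT) or for human TDP-43 with the amyotrophic lateral sclerosis mutation A315T (hTDP-43 A315T), with 2 cultures a group. Primary cortical neurons were prepared from embryos at day 16 and kept for 14 days in vitro. They came from non-transgenic animals (Wild type, 2 cultures, numbered 2 and 3) or from hemizygous animals carrying hTDP-43 WT or hTDP-43 A315T under the prion protein promoter, with 3 cultures each. In both systems the cells keep the mouse Tardbp gene, and these libraries do not measure TDP-43 protein. By immunoblot the study found similar amounts of both human proteins in MN1 cells, with less endogenous TDP-43 after transfection. In the neuron cultures it found somewhat more hTDP-43 A315T than hTDP-43 WT protein. MN1 cells received 100 µg/ml cycloheximide for 3 min before lysis and neurons did not, so that a difference between the cell types and a difference made by the inhibitor cannot be told apart.

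hnRNP proteins coat nascent transcripts through RNA recognition motifs or KH domains, and many of them keep exons or pseudo-exons out of the mRNA, while SR proteins bind exonic enhancers through RNA recognition motifs and recruit the splicing machinery through their arginine and serine rich tails. TDP-43 is itself an hnRNP, binds GU-rich RNA and contacts other hnRNPs through its C-terminal region, where most disease mutations lie. Many genes of both families hold alternative exons that carry premature stop codons, and through these the proteins lower their own mRNAs.

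Because several of these genes have processed copies in the genome, their coding sequences were searched for repeats that a read counter may not assign. The deposited counts leave out reads that align to several places and, under the stated options, reads that touch the exons of more than 1 gene. Every 30-base window of the coding sequence of each member, about the length of a footprint, was therefore searched in both strands of the GRCm38 assembly. Of 38041 windows, 24788 occurred nowhere else and touched no exon of another gene, and such windows are called countable here. In 8 members every window was countable, in 16 at least 80% were, in 11 fewer than 50% and in 7 fewer than 20%. The windows below are coding sequence and show both ends of this range. The first 4 are windows with further copies in the genome and come from genes with 89.0% to 97.8% of windows repeated elsewhere; the other three are start codon windows, with the ATG in capitals, of Hnrnpu, whose coding exons are also annotated as another gene, and of Hnrnpll and Srsf9, which are countable throughout and whose ratios of footprints to mRNA are described below.
Hnrnpa3, chr2:75661925-75661954, plus strand, 30 further copies: ggtgaagaaaatttttgttggtggtattaa
Hnrnpa1, chr15:103243701-103243730, plus strand, 10 further copies: gaagggaggaaactttggaggcaggagctc
Hnrnpf, chr6:117924037-117924066, plus strand, 6 further copies: attgggtgttgaagcacagtggtccaaaca
Srsf3, chr17:29041207-29041236, plus strand, 4 further copies: gtcactttctagagataggagaagagaaag
Hnrnpu, chr1:178337542-178337571, minus strand: ATGagttcttcgcctgttaatgtcaagaag
Hnrnpll, chr17:80061963-80061992, minus strand: ATGtcctcctcctcctcctcctcccccaag
Srsf9, chr5:115327309-115327338, plus strand: ATGtcgtcgggctgggcggacgagcgcggc
All 2371 coding windows of Hnrnpu touch the gene ENSMUSG00000100725, which was listed at 0 in every library. Mostly repeated coding sequences were found in 9 members. These were Hnrnpf (97.8% of windows repeated), Hnrnpa3 (97.7%), Srsf3 (94.2%), Hnrnpa1 (89.0%), Hnrnpk (86.2%), Srsf10 (84.6%), Hnrnph2 (72.2%), Srsf5 (71.9%) and Hnrnpc (58.2%). Their levels, differences and ratios below are uncertain for this reason. Reads were counted for them all the same, for example 2833 footprint reads of Hnrnpa1 in MN1 cells, and the part of the repeats in their values was not tested.

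TDP-43 binds runs of GT dinucleotides, and the members were searched for them on the sense strand across the whole gene span. At least 1 run of GTGTGTGTGTGT or longer was found in 16 of 31 members (51.6%), in 12 of 20 hnRNP genes and in 4 of 11 SR genes. Among all 21488 protein-coding genes searched the share was 60.8%, and among the 13397 whose span lay in the range of the members (2678 to 48506 bases) it was 59.8%. The share among the members was somewhat below both, a gap that was not tested. The median span was 10694 bases for the members and 14374 for the genes in that range, so the backgrounds are not matched in length. The longest run, 62 bases, was in Hnrnpm, which binds GU-rich RNA itself, and Hnrnpf held the most runs, 5. A run is a stretch of letters and not a measured site of binding.

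The libraries held 332370 to 1219222 assigned reads for MN1 footprints, 1328528 to 2988339 for MN1 total mRNA, 166064 to 2528820 for neuron footprints and 600385 to 6969578 for neuron total mRNA. Among the neuron total mRNA libraries, Wild type number 3 and hTDP-43 WT number 3 stood apart, with 18.8% and 14.1% of their reads on Lars2, and values without them are given beside the levels and the calls or directions that changed when they were left out. Marker genes followed the labels: cycling-cell markers summed to 512 to 740 CPM (reads of a gene scaled to the library total, per 1e6) in MN1 total mRNA and 4.3 to 14.1 in neurons, and neuronal markers to 445 to 573 and 4825 to 5507. Excitatory neuron markers (760 to 1379 CPM), GABAergic interneuron markers (677 to 1300) and astrocyte markers (61.5 to 154) were all present in the neuron cultures. Motor neuron markers summed to 49.1 to 71.2 CPM in MN1 cells and 5.2 to 12.3 in neurons. Of these markers, Chat, Mnx1 and Slc5a7 each had fewer than 10 reads over all MN1 footprint libraries. In total mRNA the microglial markers summed to 1.1 to 7.5 CPM in neurons. Endothelial markers summed to 0 to 4.8 CPM in neurons and 6.5 to 12.0 in MN1 cells, with Cldn5 at 0 in both and other markers of the list counted. Oligodendrocyte lineage markers summed to 46.6 to 79.8 CPM in neurons and 7.4 to 10.3 in MN1 cells. The part of this difference in cell makeup in the results below was not tested, and in bulk cultures fewer cells of a type and less RNA per cell cannot be told apart.

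Mouse Tardbp, the gene encoding TDP-43, was counted in all 28 libraries. In MN1 total mRNA it stood at 240 and 219 CPM in the GFP cultures, at 407 and 342 with hTDP-43 WT and at 415 and 374 with hTDP-43 A315T, so both transfected groups lay above GFP without overlap. Footprints gave 287 and 262 CPM with GFP, 365 and 374 with hTDP-43 WT and 376 and 331 with hTDP-43 A315T. The log2 difference in total mRNA was 0.71 ± 0.13 (SE) for hTDP-43 A315T against GFP and 0.72 ± 0.15 for hTDP-43 WT against GFP. Neither passed edgeR's quasi-likelihood test after Benjamini-Hochberg adjustment over all genes (adjusted p = 0.849 and 1.00), and both passed once the culture number entered the fit as a replicate block (adjusted p = 1.13e-05 and 2.63e-15). Each blocked fit leaves 1 residual degree of freedom, and edgeR takes most of the spread from other genes. The size of these p-values therefore says little about the spread between the cultures. In neuron total mRNA Tardbp ranged from 61.1 to 116 CPM over all genotypes. Reads from the human transcript that match the mouse sequence count toward this gene, and that share was not tested.

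Per kilobase of exon the members spanned a wide range of levels, given here as CPM per kilobase of exon (RPKM, mean ± SD over all cultures of a cell type). In MN1 total mRNA (n = 6) Hnrnpab, a single-strand binding protein known for mRNA transport in neurons, was highest with 489 ± 43.8, followed by Hnrnpa1, a classical repressor of exon inclusion, with 292 ± 33.4 and Hnrnpa0 with 225 ± 38.1. Every MN1 library of Hnrnpab (455 to 568) lay above every library of Hnrnpa1 (259.6 to 337), whereas Hnrnpa1 and Hnrnpa0 (178 to 259.7) met at the ends of their ranges. Lowest were Srsf12 with 0.14 ± 0.14, Hnrnpr, which is known for axonal mRNA in motor neurons, with 3.8 ± 0.72, and Hnrnph3, a relative of the G-run binding proteins F and H, with 5.1 ± 1.4.

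In neuron total mRNA (n = 8) the order began with Hnrnpa0 at 147 ± 51.4 RPKM, Hnrnpa1 at 66.2 ± 11.9 and Hnrnpab at 60.0 ± 9.1. Hnrnpa0 ranged from 65.2 to 211 and was lowest in the libraries that stood apart, so that its range met those of Hnrnpa1 (49.0 to 81.7) and Hnrnpab (45.4 to 70.0), which overlapped each other over most of their length. Lowest were Hnrnpr at 2.4 ± 0.84, Hnrnpll, a relative of Hnrnpl, at 5.0 ± 0.82 and Srsf10 at 5.1 ± 1.8, and the ranges of Hnrnpll (3.98 to 6.57) and Srsf10 (3.47 to 8.98) overlapped. Without the libraries that stood apart (n = 6) Hnrnpa0 was at 170 ± 30.9 RPKM and, from 120 up to 211, lay clear of Hnrnpa1, while Hnrnpr was at 2.1 ± 0.40, Srsf10 at 4.4 ± 0.88 and Hnrnpll at 5.0 ± 0.97. These levels are per base of annotated exon over all transcripts of a gene, untranslated regions included, so a long exon total lowers them. Hnrnpr has 22199 bases of exon but 2683 in the transcript used for its coding windows, Hnrnpll 11677 and 3009, and Srsf10 7003 and 3754. By CPM without length Hnrnpr ranked 26 of 31 in MN1 total mRNA, with a mean of 83.9.

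**Figure D1:**
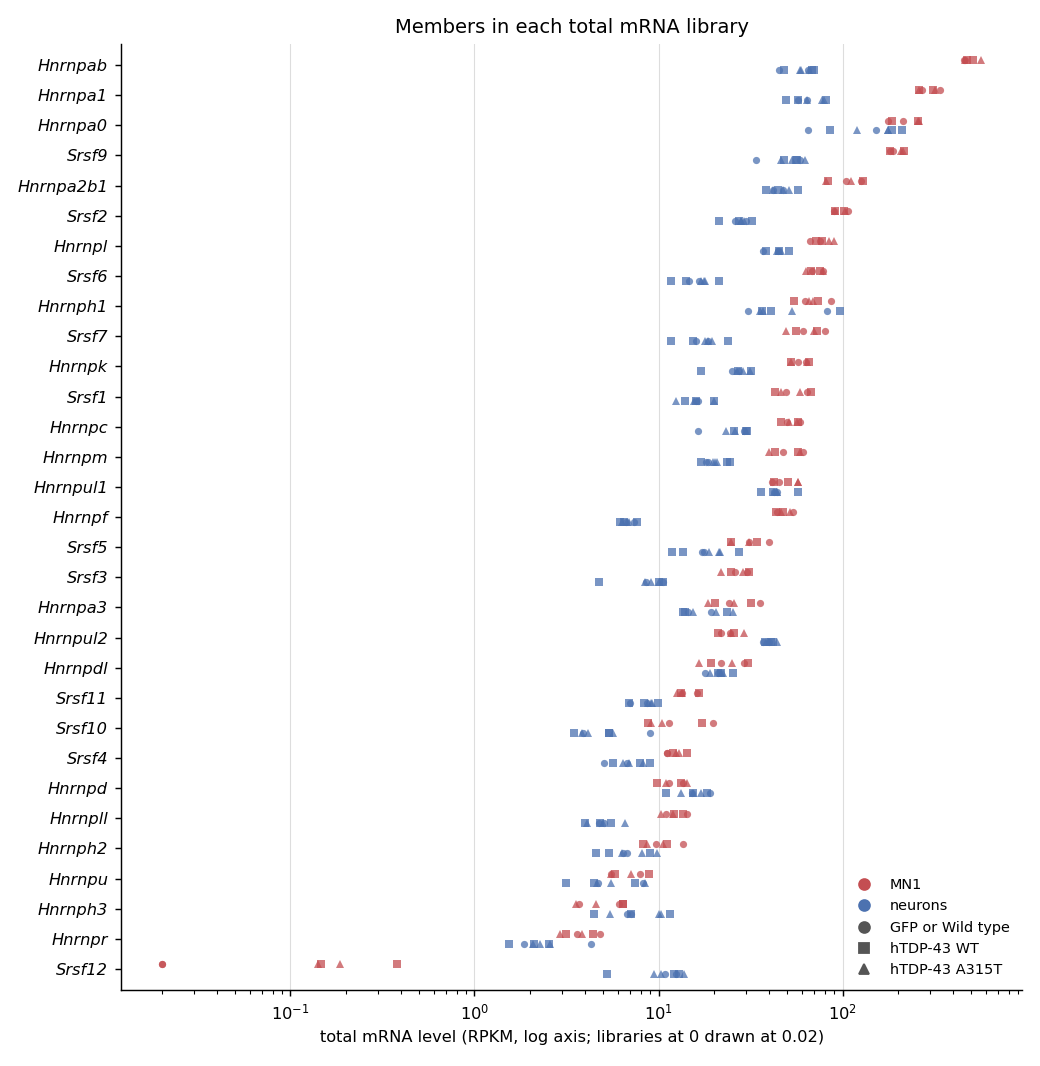
Level of each of the 31 members in total mRNA (RPKM, log axis) with 1 point for each of the 6 MN1 and 8 neuron libraries, marked by genotype; libraries at 0 are drawn at 0.02. Most members lie to the right in MN1 cells, Hnrnpab lies between 455 and 568 in MN1 cells but between 45.4 and 70.0 in neurons, and Srsf12 is the gene that lies furthest to the left in MN1 cells.

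The families took up a larger part of the mRNA of MN1 cells than of neurons. The 20 hnRNP genes summed to 5246 to 6313 CPM in MN1 total mRNA, with a median of 5681, and to 2466 to 2992 in neurons, with a median of 2655. The 11 SR genes summed to 1659 to 2124 CPM in MN1 cells, with a median of 1857, and to 564 to 787 in neurons, with a median of 649. The ranges did not overlap for either family, and the same held in footprints, where the sums of hnRNP genes lay between 6050 and 7613 CPM (MN1) and between 3041 and 3843 (neurons), and those of SR genes between 1641 and 1993 and between 533 and 667.

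Gene by gene, 23 of 31 members were lower and 3 were higher in neurons than in MN1 cells at the level of total mRNA, and 5 did not pass the test. Of the hnRNP genes 13 were lower and 2 higher, and of the SR genes 10 were lower and 1 higher. The groups differed for most genes of the genome, with 81.0% of 12801 genes called (42.6% higher and 38.4% lower), so the share of members called is near the background and only their direction departs from it. The median log2 difference was -0.94 over the members and 0.09 over all genes tested. In footprints 24 members were lower and 3 higher, beside 82.6% of genes called (42.7% higher and 39.9% lower), with a median of -0.96 over the members and 0.05 over all genes.

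Among the hnRNP genes that were lower in neurons, Hnrnpab differed most. Its CPM in total mRNA was 1266, 1301 and 1581 (lowest, median and highest) in MN1 cells and 126, 173 and 195 in neurons, with no overlap, and its log2 difference was -3.10 ± 0.14 (SE, adjusted p = 4.25e-11, edgeR), or -2.88 ± 0.12 in footprints (adjusted p = 2.09e-15). Hnrnpf, which binds G-runs beside splice sites, stood at 132, 142 and 165 CPM in MN1 cells and at 18.8, 20.4 and 23.2 in neurons. Every neuron library of Hnrnpf lay far below every MN1 library, and the log2 difference was -2.86 ± 0.11 (adjusted p = 1.24e-11), or -2.46 ± 0.16 in footprints (adjusted p = 5.15e-12). Hnrnpa1 fell from a median of 555 CPM (498 to 647) in MN1 cells to 123 (94.0 to 157) in neurons, with a log2 difference of -2.22 ± 0.14 (adjusted p = 1.38e-09). Its footprints were lower by a similar amount, at -2.32 ± 0.13 (adjusted p = 4.89e-13). Hnrnpm, Hnrnpll, Hnrnpa2b1, Hnrnpk and Hnrnpc followed in total mRNA with log2 differences from -1.41 to -1.12, and their MN1 and neuron libraries did not overlap either.

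The SR genes were lower by more, with a median log2 difference of -1.64 in total mRNA against -0.71 for the hnRNP genes, a difference between families that was not tested. Srsf6, an activator of weak exons, stood at 303, 345 and 376 CPM in MN1 cells and at 56.4, 80.8 and 102 in neurons, a log2 difference of -2.19 ± 0.13 (adjusted p = 1.14e-09). Srsf9 stood at 246, 270 and 292 CPM in MN1 cells and at 45.9, 74.1 and 85.0 in neurons, a log2 difference of -2.01 ± 0.13 (adjusted p = 3.14e-09). Neither gene had a neuron library within the MN1 range. Srsf7, which couples splicing with mRNA export, stood at 113, 149 and 184 CPM in MN1 cells and at 26.5, 41.5 and 54.4 in neurons, a log2 difference of -1.91 ± 0.16 (adjusted p = 3.72e-08). In footprints the largest differences among SR genes were those of Srsf9 (-2.86 ± 0.15, adjusted p = 1.65e-13), Srsf6 (-2.32 ± 0.11, adjusted p = 2.81e-14) and Srsf2, which marks nuclear speckles (-2.22 ± 0.11, adjusted p = 4.03e-14). Srsf5 was lower too, at -0.78 ± 0.17 in total mRNA (adjusted p = 0.000753) and -0.35 ± 0.13 in footprints (adjusted p = 0.0136), but the footprint call was lost in 13 of 14 fits that each left out 1 culture (all but neurons hTDP-43 WT 1, lowest value -0.10) and also when both cultures that stood apart were left out (adjusted p = 0.101).

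The members that were higher in neurons were Srsf12, Hnrnpul2 and Hnrnph3. Srsf12, an SR protein known to counteract other SR proteins at splice sites, had 836 reads over the 8 neuron total mRNA libraries and 6 over the 6 MN1 libraries, of which 2 were at 0. The ratio of the levels was 85.5 with a 95% interval of 39.1 to 234 that covers counting error only, and in footprints, with 202 and 2 reads, it was 68.1 (18.6 to 566). In CPM it ranged from 16.4 to 43.2 in neuron total mRNA and from 0 to 1.19 in MN1 cells, so the groups did not overlap. Hnrnpul2, a relative of hnRNP U, stood at 120, 141 and 167 CPM in MN1 cells and at 212, 227 and 253 in neurons, a log2 difference of 0.63 ± 0.10 (adjusted p = 5.30e-05) with no overlap, and its footprints differed by 0.85 ± 0.11 (adjusted p = 4.35e-07). Hnrnph3 stood at 11.2, 16.8 and 20.3 CPM in MN1 cells and at 14.1, 22.4 and 36.5 in neurons, and these ranges overlap. Its difference of 0.55 ± 0.22 passed the test (adjusted p = 0.033) but no longer did so in 7 of 14 fits that each left out 1 culture (MN1 GFP 2, hTDP-43 WT 1 and 2 and hTDP-43 A315T 2, and neurons Wild type 2, hTDP-43 WT 2 and hTDP-43 A315T 3, lowest value 0.43), while in footprints (1.28 ± 0.22, adjusted p = 1.84e-05) it passed in all 14.

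The 5 members that did not pass the test in total mRNA were Hnrnpd (0.29), Hnrnpul1 (-0.23), Hnrnpdl (-0.24), Hnrnpu (-0.24) and Hnrnph1 (-0.50 on the log2 scale). Hnrnph1, a G-run binding protein, was at 478 and 564 CPM in the neuron libraries that stood apart and between 179 and 311 in the other six, against a range from 317 to 507 in MN1 cells. Without those cultures its difference was -0.89 (adjusted p = 3.51e-05), against -0.50 ± 0.25 (adjusted p = 0.0738) with them. With the culture number as a replicate block Hnrnph1 (-0.56, adjusted p = 0.0104), Hnrnpul1 (-0.25, adjusted p = 0.043) and Hnrnpd (0.32, adjusted p = 0.0271), which binds AU-rich elements, also passed, beside 82.9% of genes. Hnrnpd passed with DESeq2 (adjusted p = 0.0407) and RLE size factors (adjusted p = 0.0422) too, and Hnrnpul1 without the cultures that stood apart (-0.22, adjusted p = 0.0424). With the control cultures alone, GFP and Wild type, 17 members were called in total mRNA (1 higher and 16 lower) and 24 in footprints, and 30 of 31 and 30 of 30 kept the sign of the difference.

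**Figure D2:**
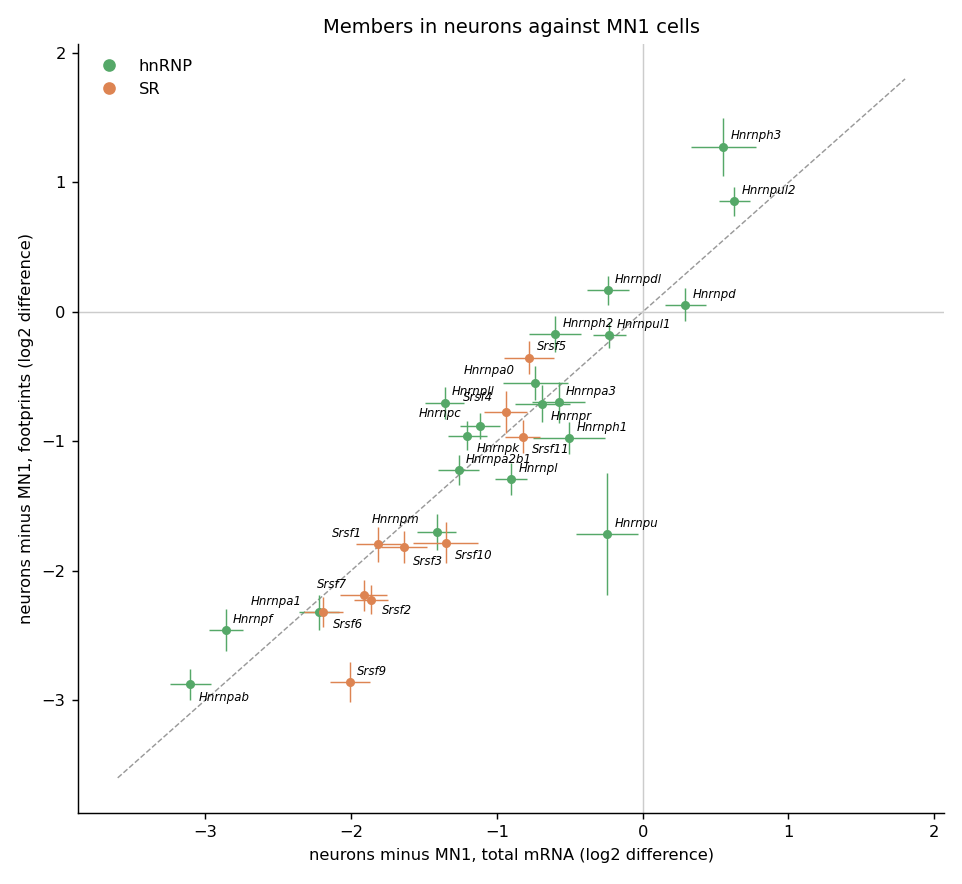
Difference between neurons and MN1 cells (log2, neurons minus MN1) of each member in total mRNA on the horizontal and in footprints on the vertical axis, with bars of 1 SE, hnRNP genes in green, SR genes in orange and a dashed line of equal differences; Srsf12, which has no finite error here, is left out. Most members lie at the lower left, with Hnrnpab at -3.10 and -2.88, and Hnrnpul2 (0.63 and 0.85) and Hnrnph3 (0.55 and 1.28) lie at the upper right.

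The other genes of splicing were read from lists chosen with earlier results of these data known. Of 37 core spliceosome genes 32 were lower and 1 higher in neuron total mRNA, with a median log2 difference of -1.09, the exception being Snrpn (3.82 ± 0.22), a neuronal Sm protein gene. Of 23 measured hnRNP proteins under other symbols 15 were lower and 6 higher, and Ptbp1, the repressor of neuronal exons, had the largest difference, -4.47 ± 0.16 (adjusted p = 3.79e-12). SR-related proteins and SR protein kinases were mixed, with 11 of 27 lower and 10 higher, among them Srpk2, an SR protein kinase, at 2.28 ± 0.15 (adjusted p = 2.33e-09). Of 15 nonsense-mediated decay factors 9 were lower and 1 higher.

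Footprints were then set against total mRNA of the same cell type, which gives the footprint to mRNA ratio of a gene relative to that of the average gene. In MN1 cells 11 of the 30 members measured had a higher and 2 a lower ratio (43.3%), beside 57.4% of 10212 genes called (27.2% higher and 30.2% lower). In neurons 10 of 31 were higher and 4 lower (45.2%), beside 54.0% of 11654 genes (26.6% higher and 27.3% lower). In both cell types the share of members called was below the background. The families differed in count: hnRNP genes had 10 higher and 2 lower of 20 in MN1 cells and 10 higher and 1 lower of 20 in neurons, while SR genes had 1 higher of 10 in MN1 cells and 3 lower of 11 in neurons. A difference between the families was not tested.

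In MN1 cells Hnrnpl, Hnrnpk, Hnrnpa2b1 and Hnrnpm had the highest differences, and in neurons Hnrnpk and Hnrnpa2b1 did. For Hnrnpk, which binds C-rich RNA through KH domains, the ratio of footprint CPM to total mRNA CPM was 1.49, 1.75 and 2.04 (lowest, median and highest) over the 6 MN1 cultures and 1.88, 2.23 and 2.93 over the 8 neuron cultures. The log2 difference was 0.95 ± 0.10 in MN1 cells (adjusted p = 2.02e-06) and 1.20 ± 0.12 in neurons (adjusted p = 4.39e-07), and all 14 cultures lay above 1. Only 13.8% of the coding windows of Hnrnpk are countable. Hnrnpa2b1, which sorts mRNA in neurites and oligodendrocytes, had ratios between 1.49 and 1.74 in MN1 cells and between 1.43 and 2.16 in neurons, with log2 differences of 0.88 ± 0.13 (adjusted p = 3.72e-05) and 0.93 ± 0.11 (adjusted p = 3.05e-06). Again every culture was above 1. Hnrnpl, which binds CA repeats, had ratios between 1.46 and 1.99 in MN1 cells and between 1.14 and 1.79 in neurons, with log2 differences of 0.96 ± 0.09 (adjusted p = 1.18e-06) and 0.58 ± 0.12 (adjusted p = 0.000416). Hnrnpm had ratios between 1.47 and 1.94 in MN1 cells and between 0.905 and 1.70 in neurons, with log2 differences of 0.86 ± 0.14 (adjusted p = 0.000103) and 0.57 ± 0.13 (adjusted p = 0.00111).

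Hnrnpd (0.66 ± 0.13, adjusted p = 0.000484), Hnrnpr (0.60 ± 0.13, adjusted p = 0.00104) and, as the only SR gene, Srsf7 (0.60 ± 0.12, adjusted p = 0.000597) were next in MN1 cells. The ratios of Hnrnpd ran from 1.10 to 1.99, those of Hnrnpr from 1.21 to 1.65 and those of Srsf7 from 1.14 to 1.71, so these genes too were above 1 in each MN1 culture. In neurons Hnrnpll (0.83 ± 0.14, adjusted p = 0.000104), Hnrnph2 (0.81 ± 0.16, adjusted p = 0.000462), Hnrnpc, which binds uridine tracts (0.74 ± 0.13, adjusted p = 0.00012), and Hnrnpab (0.64 ± 0.13, adjusted p = 0.00053) followed Hnrnpk and Hnrnpa2b1. Their ratios ran from 1.19 to 3.05, from 1.16 to 3.22, from 1.27 to 2.47 and from 1.13 to 2.13. Of the coding windows, 27.8% of those of Hnrnph2 and 41.8% of those of Hnrnpc are countable. The remaining higher members were Hnrnpab, Hnrnpc, Hnrnph1 and Hnrnph2 in MN1 cells and Hnrnpd, Hnrnpl, Hnrnpm and Hnrnpr in neurons. Among these, the call of Hnrnph1 (0.41) was lost without hTDP-43 A315T 1 (0.32) and that of Hnrnph2 (0.38) without any 1 of the cultures number 2 (0.27 to 0.29) and with DESeq2 (0.40, adjusted p = 0.0665). In neurons the call of Hnrnpr (0.59) was lost without Wild type 2 (0.20), hTDP-43 WT 3, hTDP-43 A315T 2 or hTDP-43 A315T 3, and that of Hnrnpd (0.42) without Wild type 2 (0.21) or hTDP-43 WT 3 (0.33). Hnrnph1 in neurons stood at -0.06 ± 0.21 (adjusted p = 0.849), and at 0.40 (adjusted p = 0.0339) without the cultures that stood apart.

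The lowest ratio was that of Hnrnpu, the scaffold attachment factor that binds chromatin and nuclear RNA. It had 64 footprint and 859 total mRNA reads in MN1 cells and 41 and 1349 in neurons. In CPM its footprints were 3.93, 11.7 and 21.6 in MN1 cells and 0, 2.11 and 9.74 in neurons, against 49.2, 57.6 and 79.8 and 28.2, 45.8 and 75.2 in total mRNA, with no overlap between the library types in either cell type. The log2 difference was -2.16 ± 0.28 in MN1 cells (adjusted p = 1.36e-05) and -3.65 ± 0.34 in neurons (adjusted p = 1.31e-07). Between the cell types its footprints differed by -1.72 ± 0.47 (adjusted p = 0.00169), a call that was lost without MN1 GFP 1 (-1.05, adjusted p = 0.0656). None of its coding windows is countable, since all of them touch another annotated gene, and the part of that overlap in the ratio was not tested.

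Among the SR genes of neurons Srsf9 had the lowest ratio. In the 6 neuron cultures with at least 10 reads of each kind it was 0.305 to 0.680, with a median of 0.530, against 0.717 to 0.972, with a median of 0.844, in the 6 MN1 cultures, so these cultures did not overlap. Its log2 difference in neurons was -0.98 ± 0.20 (adjusted p = 0.000395), and all of its coding windows are countable. Srsf10, which turns into a general splicing repressor when dephosphorylated, differed by -0.69 ± 0.20 (adjusted p = 0.00806) and Srsf2 by -0.31 ± 0.12 (adjusted p = 0.0388). Ratios ran from 0.447 to 0.887 over 5 cultures for Srsf10 and from 0.570 to 1.09 over 8 for Srsf2. The call of Srsf2 was lost without hTDP-43 WT 1, hTDP-43 WT 2, hTDP-43 A315T 1, hTDP-43 A315T 2 or Wild type 2 (-0.35 to -0.25). Only 15.4% of the coding windows of Srsf10 and 50.0% of those of Srsf2 are countable. In MN1 cells Hnrnpul1 was the other member with a lower ratio, at -0.29 ± 0.09 (adjusted p = 0.0144), a call that was lost without GFP 1 (-0.27), hTDP-43 WT 2 (-0.22) or hTDP-43 A315T 2 (-0.27) and with DESeq2 (adjusted p = 0.0568).

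The replicate block added calls in both cell types, beside 61.5% of genes called in MN1 cells and 57.5% in neurons. In MN1 cells Srsf1 (0.26, adjusted p = 0.0055) and Srsf6 (0.19, adjusted p = 0.0321) were then higher and Hnrnpdl (-0.28, adjusted p = 0.0256) and Srsf10 (-0.28, adjusted p = 0.0432) lower, and in neurons Hnrnph3 (0.54, adjusted p = 0.0215) was higher and Srsf12 (-0.43, adjusted p = 0.0421) lower. Across members the ratio followed the share of countable windows little, with a Spearman rho of 0.20 over 30 members in MN1 cells and 0.015 over 31 in neurons, where all members share the same libraries. A correlation across genes cannot show how far uncounted windows shifted the ratio of a single gene, and that was not tested. For comparison, core spliceosome genes had 31 of 37 higher and 2 lower in MN1 cells and 30 higher and 1 lower in neurons.

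**Figure D3:**
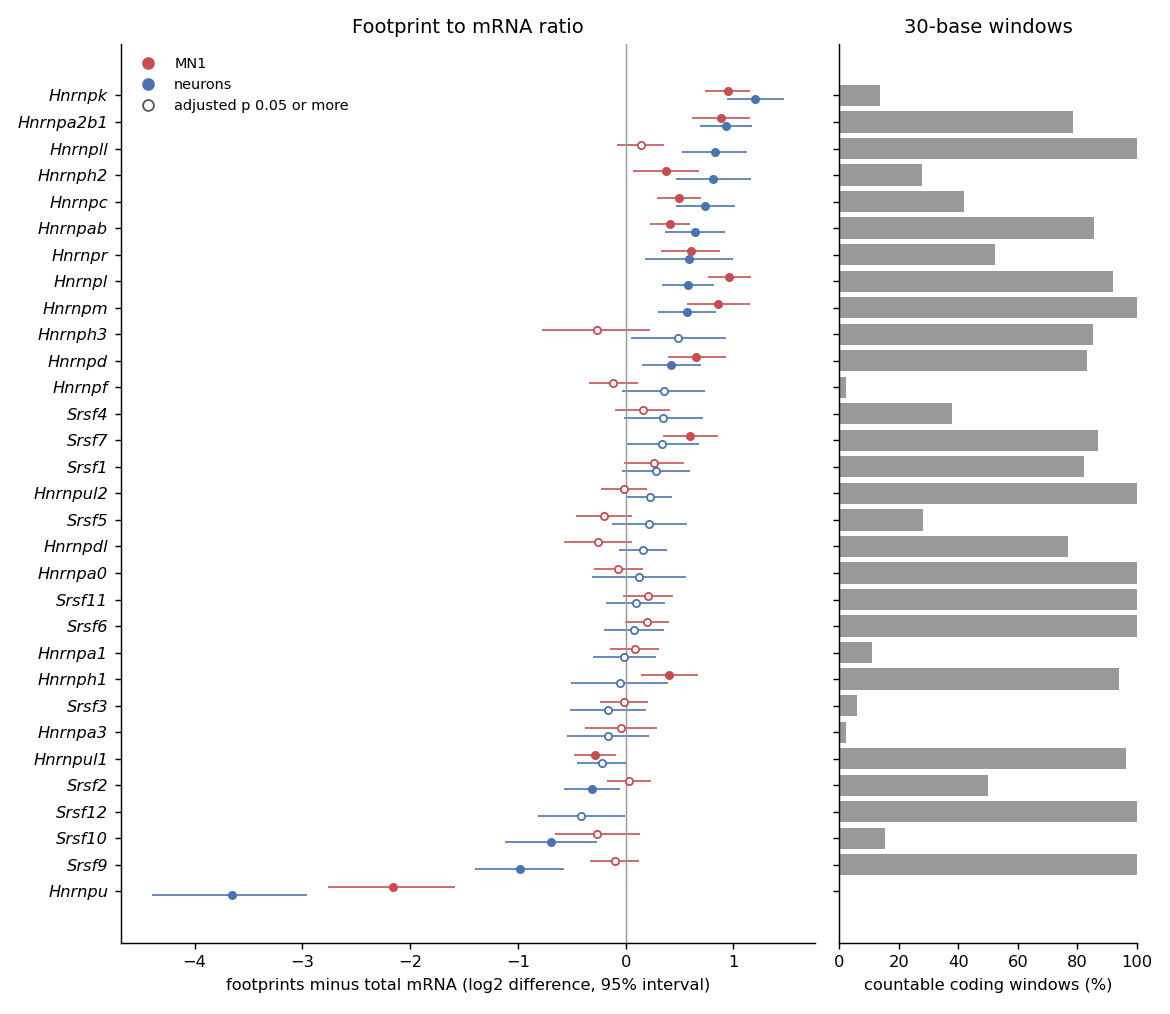
Left, log2 difference of footprints and total mRNA of each member with its 95% interval in MN1 cells and neurons, with open points where the adjusted p is 0.05 or more and Srsf12 drawn for neurons only; right, percent of 30-base coding windows that are countable. Hnrnpk lies at 0.95 and 1.20 with 13.8% of its windows countable, and Hnrnpu lies at -2.16 and -3.65 with 0.

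The ratio itself differed between neurons and MN1 cells for 2 of 31 members, beside 8.07% of 12358 genes called (5.94% higher and 2.13% lower in neurons). The median over the members was 0.09 and over all genes 0.20, and it is this shift that size factors computed by the RLE method removed (-0.02), turning the split over all genes from 734 higher and 263 lower to 187 and 417. Hnrnpll, best known for switching CD45 exons in lymphocytes, had ratios of 0.845, 0.983 and 1.12 in the 6 MN1 cultures and 1.19, 1.67 and 3.05 in the 8 neuron cultures, which did not overlap. The highest ratios, 2.99 and 3.05, came from cultures with 25 footprint reads each. The log2 difference was 0.78 ± 0.19 (adjusted p = 0.0122, edgeR), and it did not pass with RLE size factors (0.56, adjusted p = 0.0763), with DESeq2 (0.55, adjusted p = 0.0884) or without the MN1 culture hTDP-43 WT number 1 (0.59, adjusted p = 0.198). DESeq2 called Srsf9 and, in place of Hnrnpll, Hnrnpl (-0.49, adjusted p = 0.014), Hnrnpu (-1.60, adjusted p = 0.041) and Srsf2 (-0.49, adjusted p = 0.0446), so that its 4 members were all lower in neurons. For Srsf9 the log2 difference was -0.75 ± 0.23 (adjusted p = 0.038), and it was lost in 9 of 14 fits that each left out 1 culture, namely each of the 6 MN1 cultures, neurons hTDP-43 WT 2 and neurons hTDP-43 A315T 2 and 3, and it ranged from -1.03 to -0.67 over all 14. With the replicate block Hnrnpdl (0.51, adjusted p = 0.0387) and Hnrnpu (-1.41, adjusted p = 0.0313) also passed, which made 4 members beside 10.7% of genes. With control cultures alone no member passed with edgeR, nor did any have an unadjusted p below the threshold.

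The response of the families to human TDP-43 was tested in 12 comparisons of genotypes, in each cell type and kind of library. edgeR called none of the 28 to 31 members measured in any of them at an adjusted p below 0.05, beside backgrounds of 0% to 0.0115% of the genes tested (0.00965% for hTDP-43 A315T against GFP and 0.0100% for hTDP-43 WT against GFP in MN1 total mRNA). DESeq2 called none of the members either, beside at most 11 genes a comparison. These were 11 of 10080 genes for hTDP-43 A315T against hTDP-43 WT in MN1 total mRNA. At an unadjusted p below 0.05 there were 4 members for hTDP-43 A315T against GFP in MN1 total mRNA (Hnrnpa0 and Hnrnpul1 higher, Srsf10 and Srsf5 lower), 1 for hTDP-43 A315T against hTDP-43 WT in the same libraries (Hnrnph3), 3, 3 and 1 in the footprint comparisons of neurons, and 0 in the other seven. The members' log2 differences lay between -0.77 and 0.77 over all 12 comparisons. The median half-width of their 95% intervals was 0.38 to 0.56 in 11 comparisons and 0.75 for hTDP-43 WT against Wild type in neuron total mRNA.

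**Figure D4:**
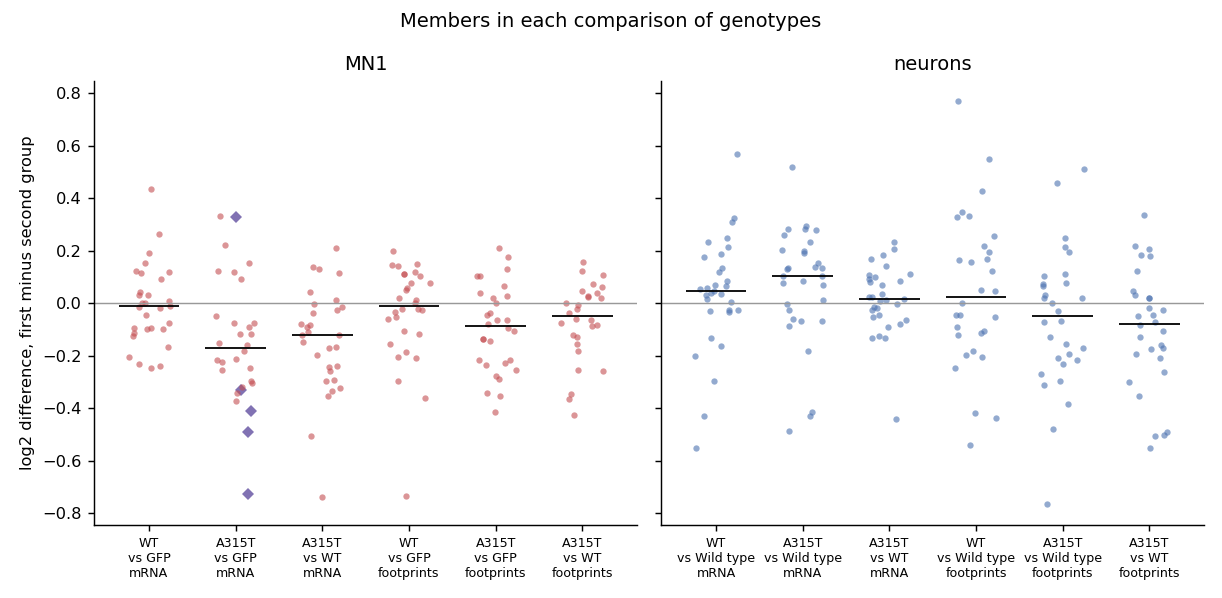
Log2 difference of each member in the 12 comparisons of genotypes, MN1 cells left and neurons right, with a bar at the median of the members and diamonds for members with an adjusted p below 0.05 when culture number entered the fit as a replicate block. Diamonds occur only for hTDP-43 A315T against GFP in MN1 total mRNA, from -0.73 for Srsf10 to 0.33 for Hnrnpa0.

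With the culture number as a replicate block, 5 members passed for hTDP-43 A315T against GFP in MN1 total mRNA, beside 283 of 10361 genes (2.73%, 1.05% higher and 1.68% lower) where the fit without the block called 1. That fit leaves 1 residual degree of freedom, and edgeR borrows the rest of its spread from other genes. Srsf10 stood at 139 and 79.7 CPM in GFP cultures number 1 and 2, at 120 and 61.4 with hTDP-43 WT and at 73.3 and 64.0 with hTDP-43 A315T. It was lower with hTDP-43 A315T than with GFP in both numbers, by -0.73 ± 0.14 on the log2 scale (adjusted p = 0.00366), and without the block by -0.73 ± 0.26 (adjusted p = 0.849). Hnrnpa3, a close relative of Hnrnpa2b1, stood at 192 and 131 CPM with GFP, at 172 and 110 with hTDP-43 WT and at 139 and 100.2 with hTDP-43 A315T. Its difference with the block was -0.51 ± 0.11 (adjusted p = 0.00677). For both genes hTDP-43 WT lay between GFP and hTDP-43 A315T in culture number 1, and when the numbers were ignored GFP and hTDP-43 A315T overlapped for Hnrnpa3 but not for Srsf10, while hTDP-43 WT overlapped with both of them for each gene.

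Srsf5 stood at 159 and 124 CPM with GFP, 136 and 98.4 with hTDP-43 WT and 124 and 99.4 with hTDP-43 A315T, and its difference between hTDP-43 A315T and GFP with the block was -0.42 ± 0.11 (adjusted p = 0.0305). Hnrnpa2b1, mutated in multisystem proteinopathy, stood at 512 and 427 CPM with GFP, 526 and 342 with hTDP-43 WT and 453 and 332 with hTDP-43 A315T, a difference of -0.34 ± 0.09 (adjusted p = 0.026). The member that was higher was Hnrnpa0, at 475 and 573 CPM with GFP, 494 and 688 with hTDP-43 WT and 689 and 695 with hTDP-43 A315T, a difference of 0.33 ± 0.08 (adjusted p = 0.0275). In each of the 5 genes both culture numbers moved the same way between GFP and hTDP-43 A315T. The blocked fit that picked these genes favours such agreement, so it adds no separate evidence. Between hTDP-43 A315T and hTDP-43 WT no member passed with the block, where 9 had an unadjusted p below 0.05 and 0.754% of genes were called. Only 2.26% of the coding windows of Hnrnpa3, 15.4% of those of Srsf10 and 28.1% of those of Srsf5 are countable.

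The same 5 genes were not called in MN1 footprints, with the block (0.624% of genes called, 6 members with an unadjusted p below 0.05) or without it. Srsf10 footprints stood at 85.4 and 68.7 CPM with GFP, 73.0 and 55.2 with hTDP-43 WT and 63.3 and 51.9 with hTDP-43 A315T, a difference of -0.42 ± 0.21 (adjusted p = 1.00) or -0.44 ± 0.18 with the block (adjusted p = 0.497). Hnrnpa0 footprints were 443 and 525 CPM in the GFP cultures, against 546 and 579 in those with hTDP-43 A315T. Srsf5 footprints did not move together, at 97.6 and 96.2 CPM in the GFP cultures against 111 and 74.7 in those with hTDP-43 A315T. In neurons Srsf10 total mRNA was 27.3 and 62.9 CPM in Wild type cultures, 37.6, 24.3 and 37.6 with hTDP-43 WT and 39.5, 29.2 and 27.0 with hTDP-43 A315T, and these groups overlapped. The difference between hTDP-43 A315T and Wild type neurons was -0.49 with a 95% interval of -1.37 to 0.39 in total mRNA. Without Wild type number 3, which held the 62.9 and stood apart, it turned to 0.22 (-0.45 to 0.88), and 12 of 31 members changed sign in this comparison while none passed with edgeR, adjusted or unadjusted. For hTDP-43 A315T against hTDP-43 WT in neuron total mRNA, 9 of 31 changed sign without hTDP-43 WT number 3, and for hTDP-43 WT against Wild type 9 and 6 did without Wild type number 3 or hTDP-43 WT number 3, again with none past the threshold.

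**Figure D5:**
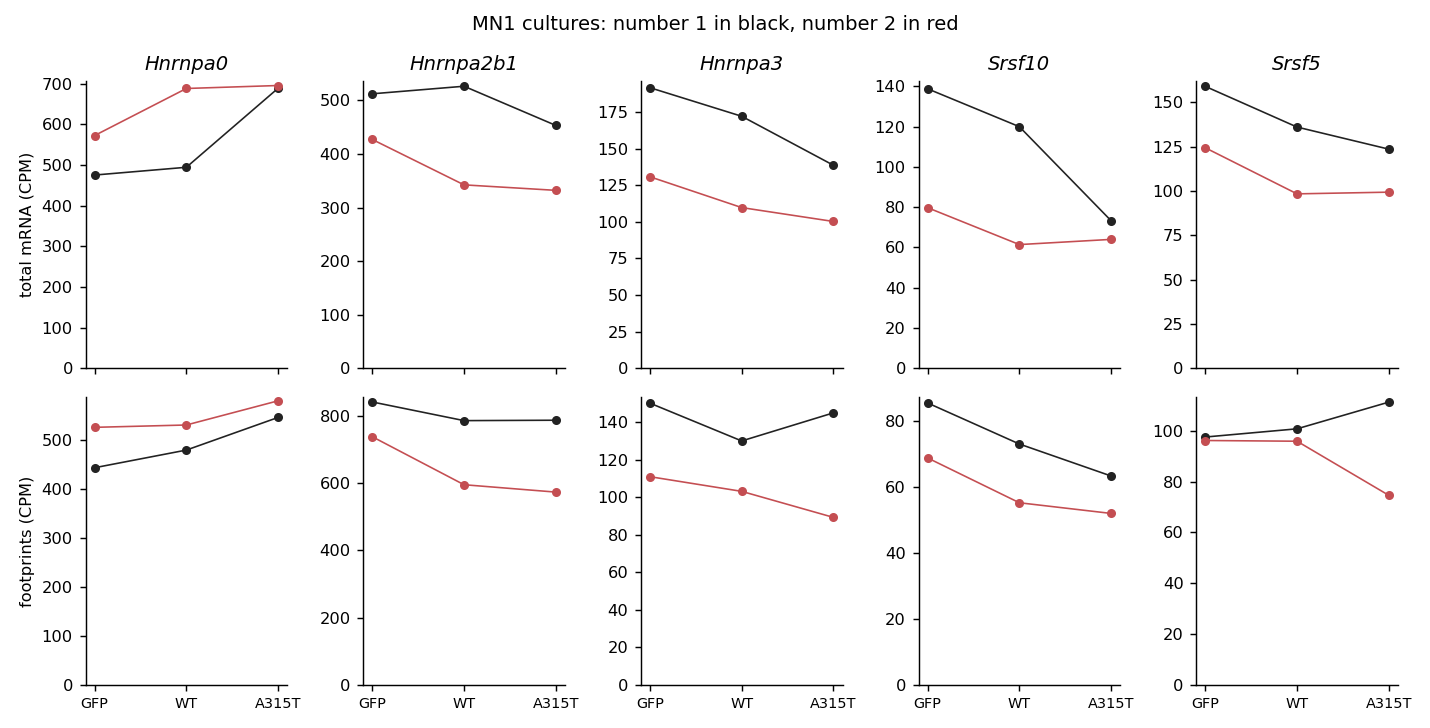
CPM of the 5 members called with the replicate block in each MN1 culture, total mRNA in the upper and footprints in the lower row, with a line for each culture number across GFP, hTDP-43 WT and hTDP-43 A315T. In total mRNA both lines end above their GFP value for Hnrnpa0 (475 to 689 and 573 to 695) and below it for the others. The genes were picked by the blocked fit of these total mRNA libraries, which favours such agreement.

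In neurons the members with an unadjusted p below 0.05 between genotypes were all in footprints, among them Hnrnph2, Hnrnpll and Srsf10. Hnrnph2 footprints stood at 44.3 and 39.0 CPM in Wild type, 77.6, 50.0 and 75.7 with hTDP-43 WT and 49.6, 55.3 and 48.6 with hTDP-43 A315T. The hTDP-43 WT cultures were all above Wild type, by 0.77 ± 0.26 on the log2 scale (unadjusted p = 0.0091, adjusted p = 0.724, edgeR), while they overlapped with hTDP-43 A315T. Hnrnpll footprints stood at 96.2 and 74.0 CPM in Wild type, 107, 139 and 172 with hTDP-43 WT and 91.4, 94.5 and 80.3 with hTDP-43 A315T. Here hTDP-43 WT lay above both other groups without overlap, by 0.55 ± 0.24 over Wild type (adjusted p = 0.915), and hTDP-43 A315T differed from it by -0.55 ± 0.21 (adjusted p = 1.00). For both genes, hTDP-43 WT cultures number 2 and 3 rest on the footprint libraries with the fewest reads, 192008 and 166064. There 3 reads make about 15.6 and 18.1 CPM, so these values rest on few reads. Srsf10 footprints were 24.3 and 33.1 CPM in Wild type, above the 17.6, 16.1 and 14.7 of hTDP-43 A315T without overlap, at -0.77 ± 0.34 (adjusted p = 1.00). In total mRNA, leaving out Wild type number 2 left the library that stood apart as the lone control, and Hnrnpa0 (1.30, adjusted p = 0.0168), Hnrnph1 (-0.94, adjusted p = 0.0334) and Hnrnpr (-0.88, adjusted p = 0.0361) then passed for hTDP-43 A315T against Wild type. In MN1 total mRNA without GFP number 2, hTDP-43 A315T differed from GFP by -0.78 for Hnrnpa3 and -1.12 for Srsf10. Without hTDP-43 WT number 2, it differed from hTDP-43 WT by -0.62 for Hnrnpa3, -0.65 for Hnrnpdl and -0.90 for Srsf10. Each of these MN1 fits set a lone culture number 1 against cultures of both numbers. Genotype and culture number therefore cannot be told apart in them.

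The change of the footprint to mRNA ratio with genotype was tested in 6 comparisons, and edgeR and DESeq2 called no member in any, beside a background of 0%. At an unadjusted p below 0.05 there was 1 member, Hnrnpu in neurons of hTDP-43 A315T against hTDP-43 WT (1.92 ± 0.92, adjusted p = 1.00), which rests on few footprint reads. Whether the response to hTDP-43 WT or hTDP-43 A315T differed between neurons and MN1 cells was tested in 4 further comparisons, and again neither tool called a member, beside 0% of genes. Hnrnph2 (1.04 ± 0.36) and Srsf11 (0.67 ± 0.30) in footprints and Srsf12 in total mRNA had unadjusted p-values below 0.05 (0.00931, 0.0399 and 0.0363, adjusted p = 1.00 each). Srsf12 had only 6 reads over the 6 MN1 total mRNA libraries, 2 of them at 0. Its response in MN1 cells cannot be estimated, so nothing is drawn from its p-value. For Srsf10 the response to hTDP-43 A315T in total mRNA differed between neurons and MN1 cells by 0.19 with a 95% interval of -0.96 to 1.34, and for Hnrnpa3 by 0.72 with an interval of -0.17 to 1.61. Without Wild type number 3 these were 0.88 (-0.02 to 1.79, adjusted p = 0.946) and 0.92 (0.09 to 1.75, adjusted p = 0.946).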

How the data were processed

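Counts per gene were deposited for 28 libraries of footprints and poly(A)-selected total mRNA. The authors trimmed reads with cutadapt 1.8.1, removed non-coding RNA with Bowtie2, aligned with TopHat2 and counted exon reads, without strand, with featureCounts 1.4.4 on Ensembl release 80 (GRCm38). The deposited length column gave exon lengths for RPKM. The members and lists were chosen with earlier results of these data known. Counts were tested with edgeR 4.0.16 (R 4.3.3): TMM, its filter on low counts (minimum count 10, minimum total 15), quasi-likelihood test, Benjamini-Hochberg adjustment over all genes tested, threshold 0.05. Each pair of genotypes was fitted alone, and cell types and library types were contrasted as means over the 3 groups. CPM use TMM-scaled totals. Ratios per culture needed at least 10 reads of each kind. Alternatives were RLE size factors, DESeq2 1.42.0, no filter, protein-coding genes only, control cultures only, each culture left out, and the culture number as a replicate block. Main fits over both library types did not pair the footprint and total mRNA library of a culture. In their replicate block alternative the block was each culture instead of its number. Leaving out both neuron cultures that stood apart was chosen after seeing the data.

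Within a cell type, libraries with the same culture number share a date in their titles, apart from the year in 1 GFP footprint title. The mean correlation of deviations from the group means between same-numbered libraries was 0.34 (MN1 footprints), 0.44 (MN1 total mRNA), 0.12 (neuron footprints) and 0.17 (neuron total mRNA, lowest pair -0.17). Cultures are the replicates, and where they shared cells or animals is not stated, so p-values measure the spread between these cultures. Named genes were all members, with full statistics for those past the threshold in a comparison of genotypes, up to 6 in each direction between cell types or library types, and the 3 highest and lowest by RPKM. Gene biotypes and coding sequences came from GENCODE M21, in which 23 of the 31 members have the same start and end as in the files. Fits were tested on simulated data. Intervals on counts cover counting error only.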

Additional observations from a re-analysis of the deposited data

Results flagged for a closer look

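The footprint to mRNA ratio of Srsf9 and that of Hnrnpll drew attention because a test of the difference between the cell types passed: neurons minus MN1 cells was -0.75 for Srsf9 and 0.78 for Hnrnpll on the log2 scale. Reads were also counted on pseudogenes with the family symbol, which no comparison used: Hnrnpa1l2-ps had 28 reads over the 28 libraries, in 10 of them and at most 5 in 1, and Hnrnpa1l2-ps2 had 24, in 15 libraries and at most 4 in 1.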

How the results depend on the processing

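The counts of members called stayed within 1.5 times in most alternatives, and those that moved further follow. For the ratio in neurons against MN1 cells (2 members) the count was 1 with RLE size factors, 4 with DESeq2, 1 without the filter, 0 with control cultures only, 4 with the replicate block and 0 to 3 with 1 culture left out. Control cultures only gave 17 members for neurons against MN1 total mRNA (26), 6 for footprints against total mRNA in MN1 cells (13) and 0 in neurons (14), from 2 cultures a cell type. For MN1 total mRNA the replicate block gave 5 members for hTDP-43 A315T against GFP, leaving out 1 culture gave 0 to 2 there and 0 to 3 for hTDP-43 A315T against hTDP-43 WT, and in neuron total mRNA it gave 0 to 3 for hTDP-43 A315T against Wild type, where no member was called with all cultures. The fitted difference of Hnrnpul1 between neurons and MN1 total mRNA, which did not pass, was 0.026 with control cultures only (-0.23 with all cultures). The cause of these changes was not tested, beyond the smaller number of cultures. The replicate block changed no call of a member other than those given with their values. By CPM without length the order of levels changed. In MN1 total mRNA the rank went from 3 to 2 for Hnrnpa0, 2 to 3 for Hnrnpa1, 7 to 4 for Hnrnpl and 30 to 26 for Hnrnpr. Hnrnpab stayed at rank 1. On RLE totals the RPKM ranks of these genes did not change. Leaving out 1 of 2 cultures assumes that the lone one varies like the other group. In MN1 cells it also sets a lone culture number against both numbers, so genotype and culture number cannot be told apart. Few reads limit the values of Srsf12 in MN1 cells and of Hnrnpu footprints, and none of the coding windows of Hnrnpu is countable.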
